A study of Oryza sativa with 51 samples.

Results

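The comparison sets flag leaves of the rice hybrid LY2186 (Liangyou2186) against those of its male-sterile parent SE21s at dusk and in the first hours of the night. Its members are the libraries taken at Zeitgeber time (ZT) 12, 15, 18, 36, 39 and 42 h, 6 of LY2186 and 6 of SE21s, so 12 of the 51 libraries of the series. Each hybrid library was set against the SE21s library of the same ZT. The flag leaf is the last leaf formed below the panicle, and all plants grew in the field and had reached grain filling. The series has 17 strand-specific RNA libraries for each of 3 lines, the third being the restorer parent MH86 (Minghui86), taken every 3 h from ZT0 to ZT48 each line having 1 library per time. The labels name no transgene, treatment or age in days for any line. The labels give neither the hours of light nor say if the libraries of 1 line are from different plants, so that "dusk" and "night" here stand for the ZT hours, and p-values reflect only how these libraries vary, which could be technical. MH86 entered no test, and its levels at the same 6 times are given for description.

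The plant circadian clock is a loop of repressors that follow each other through the day. LHY acts around dawn, the pseudo-response regulators (PRR) through the day, and GI, LUX and ELF3 towards evening, when LUX and ELF3 proteins form an evening complex that holds other genes down at night. Genes for photosynthesis and for chlorophyll synthesis are among its best known outputs and are usually low in the dark. In the same hours a leaf breaks down the starch that it stored by day and exports sucrose, which at grain filling feeds the panicle.

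The table gives FPKM (fragments relative to transcript length and sequencing depth), and the depth behind a value is unknown. Low values place the relative depths of the 12 libraries within a factor of 1.54 of each other. In the 6 SE21s libraries 11164 to 12278 genes are listed at 0, and in the 6 LY2186 libraries 10067 to 11089, with fewer in LY2186 in 6 of 6 pairs (two-sided exact permutation of signs within pairs, p = 0.0312, the smallest that 6 pairs allow). FPKM sums were also lower in LY2186 in 6 of 6 pairs (the same p), at 826679 to 1332792 against 1041342 to 2094417. The top 3 loci held 31.5% to 66.2% of a sum, while the upper quartile of FPKM stayed between 9.24 and 10.6. The part of these library measures in the gene results was not tested beyond other scalings, which are named where they change a call. Genes of the antenna and carbon fixation lists, which mark leaf mesophyll, were present in every library. Of 11 floral organ markers 7 in each line were under 1 FPKM in all 6 libraries, 4 of them at 0 throughout in SE21s, and the list's summed level was 10.3 to 26.3 FPKM in SE21s and 12 to 19.5 in LY2186. The sum of 7 grain markers was 19.4 to 27.7 FPKM in SE21s, where 4 were under 1 FPKM in all 6 libraries, and 28.7 to 71.9 in LY2186, where 1 was.

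Genes whose FPKM averaged 1 or more across the 51 libraries, 16842 in number, were fitted on the log2(FPKM + 0.5) scale by limma, with ZT as a block. A gene was called at an adjusted p under 0.05 over all 16842 genes. Differences are LY2186 minus SE21s on this scale, as the mean of 6 pairs ± SE, and understate the change of low genes. In all, 5935 genes were called (35.2%), 3091 higher in LY2186 (18.4%) and 2844 lower (16.9%), and 882 higher (5.24%) and 409 lower genes (2.43%), together 7.67%, differed by at least 2-fold. Calls that were higher made up 52.1%; quantile scaling made this 45.5% and median-ratio scaling 52.4%. The median difference of all tested genes was 0.02. Ranges of the 6 libraries did not overlap for 741 genes higher in LY2186 (4.4%) and 402 lower (2.39%). Without the ZT39 pair 3931 genes were called, and without the time block 1923. Of the 84 genes chosen for naming from the lists below, 52 lost their call without the block. The 84 include 7 clock genes that had no call to lose. The first night alone gave 1937 calls and the second 2770.

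**Figure D1:**
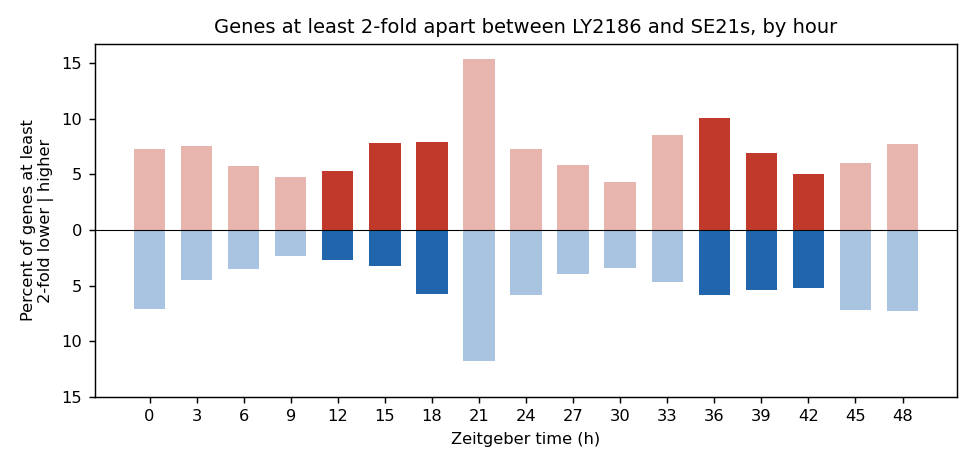
Percent of the 16842 tested genes that were at least 2-fold higher (upward bars) or lower (downward bars) in LY2186 than in SE21s at each Zeitgeber time, with 1 library per line and time. Dark bars are the 6 hours compared here, where the share in either direction ran from 8.03% at ZT12 to 15.9% at ZT36, and pale bars are the other hours.

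Line differences in single hours varied in extent. At ZT36 the median difference over all genes was 0.11, and at the other 5 hours it lay within 0.007 of 0. Across genes, the differences of any pair of hours had a Pearson r of 0.45 to 0.73, a description in which genes are not independent replicates. All 84 list genes chosen for naming had the same sign of the mean difference in both nights. Most of them were chosen by their adjusted p in these same pairs, so this is no independent repeat.

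Gene lists were drawn up by locus identifier, with symbols from general knowledge of rice genes, because the table holds no names. The 22 lists have 241 members, of which 237 are in the table and 208 passed the level filter. The filter takes the mean over all libraries, so a member that is high in 1 line only can pass through that line. The 29 members in the table that did not pass, such as Ghd7, PR1a, SWEET11 and most floral markers, had means under 1 FPKM. Counts of called members in each list stand beside 18.4% of all tested genes called higher and 16.9% called lower.

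**Figure D2:**
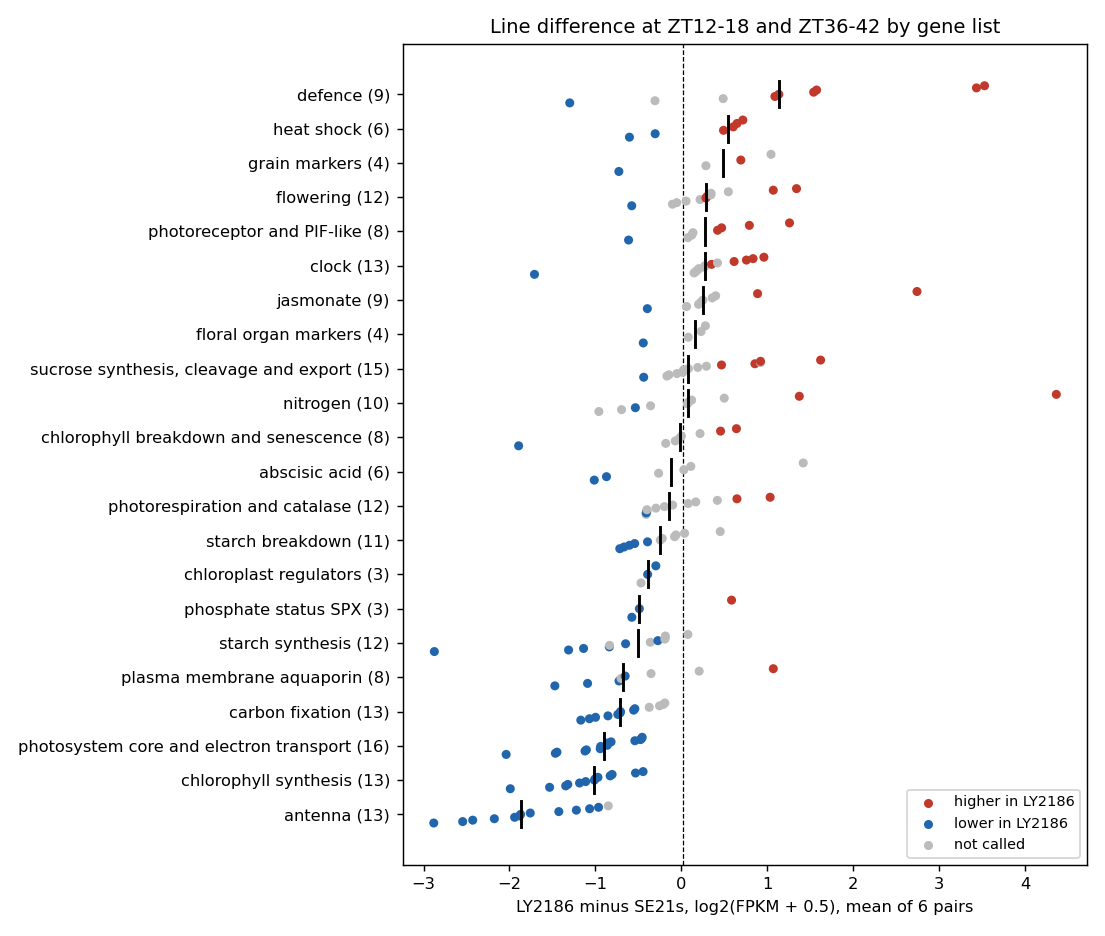
Difference of every tested list member (dots; x axis, LY2186 minus SE21s on the log2(FPKM + 0.5) scale, mean of 6 pairs), with list medians as black bars, the number tested in brackets and the median of all tested genes (0.02) as a dashed line. Photosynthesis lists lie to the left, with medians of -1.87 for antenna, -1.01 for chlorophyll synthesis and -0.90 for photosystem core genes, and the defence list lies to the right with 1.14.

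Several evening clock genes had more mRNA in the hybrid than in SE21s, and LHY had less. Of 13 clock genes 5 were higher and 1 was lower, where 18.4% and 16.9% of all genes were called, and the list's median was 0.28. LHY (LOC_Os08g06110), the MYB repressor of the morning loop, ran from 3.15 to 131 FPKM (median 7.15) in SE21s and from 1.71 to 22.6 FPKM (median 2.26) in LY2186. The ranges overlapped, but LY2186 was lower in every pair. Most of the span came from ZT18 and ZT42, when LHY stood at 116 and 131 FPKM in SE21s and at 13 and 22.6 in LY2186. The mean difference was -1.71 ± 0.35 (adjusted p = 0.00764), from -0.41 at ZT12 to -3.11 at ZT18. In MH86 the level was 0.931 to 4.42 FPKM (median 1.55), so its highest value was below those of the other lines.

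GI (LOC_Os01g08700), GIGANTEA, ran from 1.02 to 379.9 FPKM (median 22.5) in SE21s and from 2.15 to 509 FPKM (median 40.9) in LY2186. It fell steeply from ZT12 to ZT18 in both lines, so the ranges overlapped, while every hybrid library was above its partner. The difference was 0.76 ± 0.11 (adjusted p = 0.0017). LUX (LOC_Os01g74020), the DNA-binding member of the evening complex, took 19.4 to 434 FPKM (median 96.2) in SE21s against 55.7 to 773 FPKM (median 129) in LY2186, a difference of 0.96 ± 0.18 (adjusted p = 0.00419). It too was higher in each pair, by 0.16 at ZT39 and by up to 1.49 at ZT18. It was not called when all 34 libraries of both lines shared 1 fit. MH86 had 2.62 to 563 FPKM of GI (median 28.4) and 86.8 to 666 FPKM of LUX (median 184).

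ELF3-2 (LOC_Os01g38530), a scaffold of the evening complex, was the 1 clock gene whose ranges did not overlap, as those of 4.4% of all genes did not in this direction. Its 6 levels were 30.8 to 41.9 FPKM (median 37) in SE21s and 41.9 to 97.3 FPKM (median 72.9) in LY2186. The ranges met at 41.9 FPKM, and the difference was 0.84 ± 0.15 (adjusted p = 0.00425). At ZT12 and ZT36 the pairs were close, with differences of 0.18 and 0.44. At ZT18 SE21s stood at 33.2 FPKM and LY2186 at 83.6. Levels of ELF3-2 in MH86 were 39.8 to 96.3 FPKM (median 68.5). ELF3-1, the other scaffold gene, ran from 29.2 to 57 FPKM (median 45.8) against 32.1 to 65.5 FPKM (median 55) and was not called (adjusted p = 0.156).

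Of the pseudo-response regulators, PRR37 (0.61 ± 0.14, adjusted p = 0.0112) and PRR73 (0.35 ± 0.11, adjusted p = 0.0377) were higher in LY2186 in 6 of 6 pairs. PRR37 ran from 0.583 to 46 FPKM (median 5.74) in SE21s and 0.807 to 57.7 FPKM (median 11) in LY2186, and PRR73 from 0.59 to 105 FPKM (median 8.74) and 0.67 to 107 FPKM (median 14), so both overlapped widely. MH86 had 0.674 to 39.8 FPKM of PRR37 (median 6.55) and 0.432 to 85.1 FPKM of PRR73 (median 8.26). PRR73 was not called without the ZT15, ZT18, ZT36 or ZT39 pair or with quantile scaling. PRR95, PRR59, PRR1 (the TOC1 homologue), the blue light receptor gene FKF1 and a pair of ZTL-like genes had differences of 0.17 to 0.42 with adjusted p from 0.0798 to 0.135, and were not called. The sign of PRR95 turned to -0.063 with quantile scaling.

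**Figure D3:**
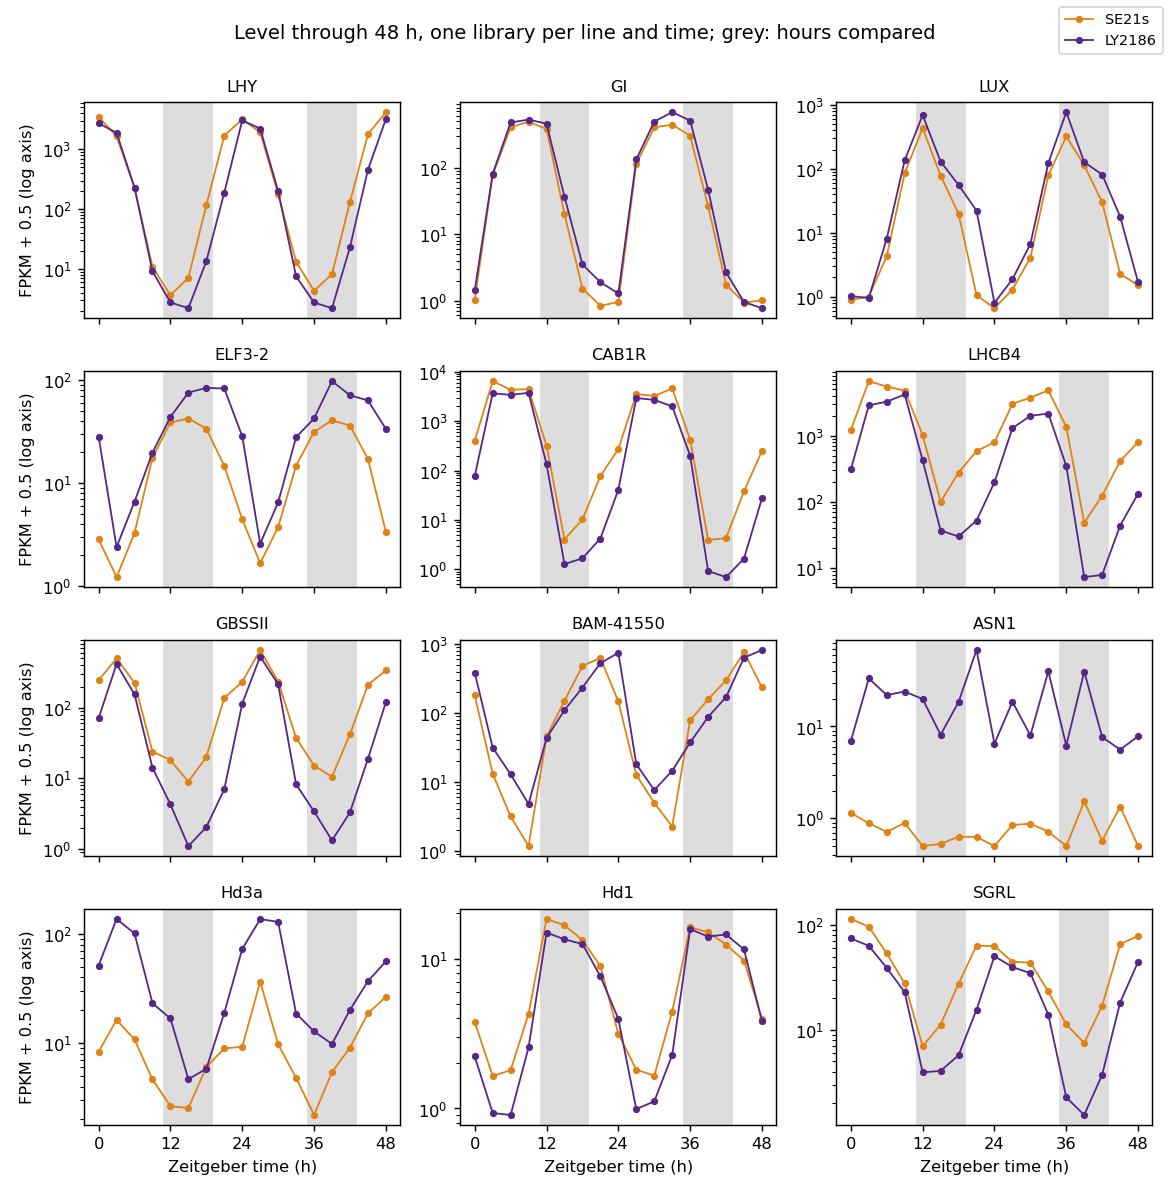
FPKM + 0.5 on a log axis through 48 h (x axis, Zeitgeber time in hours) for 12 genes, with 1 library per line and time, SE21s in orange and LY2186 in purple; the hours compared are shaded. In the shaded hours LHY, CAB1R, LHCB4, GBSSII and SGRL were lower in LY2186 in 6 of 6 pairs, and GI, LUX, ELF3-2 and ASN1 higher in 6 of 6.

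Several photoreceptor genes were higher as well. Of 8 tested genes of photoreceptors and phytochrome-interacting factor-like proteins 4 were higher and 1 was lower, against 18.4% and 16.9% of all genes. The list's median was 0.28. The largest difference was that of PIL14 (LOC_Os07g05010), which encodes a phytochrome-interacting factor-like bHLH protein. It ran from 19.9 to 35.4 FPKM (median 26.4) in SE21s and from 29.4 to 109 FPKM (median 84.2) in LY2186, a difference of 1.26 ± 0.20 (adjusted p = 0.00199). The ranges overlapped only through LY2186 at ZT12 and ZT36, when the pairs differed by 0.55 and 0.57. At the other 4 times LY2186 was above the whole SE21s range. The blue light receptor gene CRY2 took 10.5 to 26.3 FPKM (median 17.2) against 20.4 to 39.3 FPKM (median 29.3), and differed by 0.79 ± 0.13 (adjusted p = 0.00279). PHYC (0.47 ± 0.08) and CRY1b (0.42 ± 0.08) were higher in every pair too, whereas PHYA (0.08 ± 0.10), PHYB (0.12 ± 0.08) and CRY1a (0.14 ± 0.09) were not called. PIL13, of the same family as PIL14, was lower in 6 of 6 pairs (-0.61 ± 0.15, adjusted p = 0.0145).

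In the flowering list 4 of 12 tested genes were higher in LY2186 and 1 was lower, against 18.4% and 16.9% of all genes. The list's median was 0.29. Hd3a (LOC_Os06g06320), a florigen gene, ran from 1.7 to 8.6 FPKM (median 3.54) in SE21s and 4.18 to 19.7 FPKM (median 10.8) in LY2186. The ranges overlapped, and the lead of LY2186 was not even through the night, with differences of 2.67 and 2.54 at ZT12 and ZT36 and -0.05 at ZT18. The mean was 1.34 ± 0.35 (adjusted p = 0.0203), and without the ZT36 pair it was not called (adjusted p = 0.0529). Ehd1, an activator of florigen genes, was near 0 in both lines, with at most 0.146 FPKM in SE21s and 0.951 in LY2186. MADS15 (1.07 ± 0.30), MADS14 (0.30 ± 0.10) and MADS56 (0.29 ± 0.09) were higher, and MADS50, a SOC1 homologue, was lower (-0.58 ± 0.10, adjusted p = 0.00319). MADS15 lost its call without the ZT15, ZT36 or ZT39 pair, and MADS56 without the ZT15, ZT36, ZT39 or ZT42 pair. MADS14 (adjusted p = 0.0396) was not called without the ZT15, ZT18, ZT39 or ZT42 pair. The count of higher flowering genes was 1 without the ZT15, ZT36 or ZT39 pair and 2 without the ZT42 pair.

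The photosynthesis lists were lower in LY2186 nearly throughout. All 16 tested genes of the photosystem core and electron transport and all 13 of chlorophyll synthesis were lower, as were 12 of 13 antenna genes and 9 of 13 carbon fixation genes, where 16.9% of all genes were called lower. No member of these 4 lists was higher. The medians were -0.90, -1.01, -1.87 and -0.71 in this order, and the ratios of mean FPKM had medians of 0.545, 0.509, 0.382 and 0.652. Median-ratio and quantile scaling left 12 antenna, 13 chlorophyll synthesis and 9 carbon fixation genes lower, and 16 and 15 photosystem core genes. Without the time block 1 antenna, 1 core, 5 chlorophyll synthesis and 1 carbon fixation gene were called lower, against 795 of all 16842 genes. The single antenna, core and carbon fixation genes are near that share. The first night alone gave 4, 9, 7 and 2 lower, against 831 of all genes. The second night alone gave 10, 13, 12 and 8, against 1399. In MH86 the levels were lower still for most of these genes, and the LY2186 mean lay between those of its parents for 11 of 13 antenna, 15 of 16 core, 11 of 13 chlorophyll synthesis and 13 of 13 carbon fixation genes, against 48.4% of all tested genes.

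Antenna proteins bind most of the chlorophyll of the leaf and pass its light energy to the photosystems. CAB1R (LOC_Os09g17740), a gene of the photosystem II antenna, ran from 3.43 to 423 FPKM (median 6.77) in SE21s and from 0.198 to 199 FPKM (median 0.98) in LY2186. Both lines were high at ZT12 and ZT36 and near their floor later, so the ranges overlapped while each pair showed LY2186 lower. The difference was -1.88 ± 0.22 (adjusted p = 0.000482). LHCB4 (LOC_Os07g37240), the gene of the minor antenna protein CP29, took 48.4 to 1354 FPKM (median 201) against 6.85 to 425 FPKM (median 33.1). At ZT18 it stood at 278 FPKM in SE21s and 29.7 in LY2186, and at ZT42 at 124 and 7.45. Its difference of -2.43 ± 0.35 (adjusted p = 0.00189) held in 6 of 6 pairs.

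LHCB5, the gene of CP26, differed by -1.87 ± 0.24 and LHCA2, of the photosystem I antenna, by -1.22 ± 0.19 (adjusted p = 0.000825 and 0.00173), lower in 6 of 6 pairs. An LHCB1 antenna gene (LOC_Os01g52240, chosen after its values were seen) had the widest gap of the list, at 7.31 to 173 FPKM (median 46.9) in SE21s against 1.29 to 15.2 FPKM (median 6.16) in LY2186 and a difference of -2.88 ± 0.41 (adjusted p = 0.00208). LHCA3 was the member not called (-0.85 ± 0.39, adjusted p = 0.128), with 2 pairs higher and 4 lower in LY2186. Antenna genes and those of the Rubisco small subunit have near copies in the genome, and how fragments shared between copies were counted is not given in the sources used here, so their split between members is uncertain.

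Among the photosystem core genes PSAN (LOC_Os12g08770), which encodes a photosystem I subunit on the lumen side, had the smallest adjusted p. It ran from 268 to 1019.9 FPKM (median 409) in SE21s and 81.6 to 351 FPKM (median 175) in LY2186. The ranges overlapped, with LY2186 lower in every pair, and the difference was -1.45 ± 0.12 (adjusted p = 8.45e-05). PSAO (-2.04 ± 0.27), PSAH (-1.47 ± 0.19) and PSAD (-1.10 ± 0.13), further photosystem I subunits, were lower too. The oxygen-evolving complex genes PSBO, PSBP and PSBQ differed by -0.94, -0.86 and -0.86, and the smallest differences of the list were those of PETC (-0.46), FNR2 (-0.46) and PSAL (-0.47).

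Of the 13 chlorophyll synthesis genes 4 had ranges that did not overlap, where 2.39% of all genes were separated in this direction. HEMA1 (LOC_Os10g35840), for glutamyl-tRNA reductase at the entry of the pathway, ran from 87 to 202 FPKM (median 96.2) in SE21s and 37.8 to 73.8 FPKM (median 51.7) in LY2186. Every SE21s library was above every LY2186 library, and the difference was -1.11 ± 0.10 (adjusted p = 0.000155). GSA (LOC_Os08g41990), the aminotransferase of the next step, was likewise separated, at 183 to 245 FPKM (median 216) against 89.7 to 165 FPKM (median 99.9), with a difference of -0.97 ± 0.11 (adjusted p = 0.000385). CRD1 (-1.53 ± 0.19), the cyclase that forms the fifth ring, and PORB (-1.32 ± 0.14), a light-dependent protochlorophyllide oxidoreductase, were separated as well. PORA, its paralogue, had the largest difference of the list (-1.99 ± 0.27), at low levels of 1.92 to 13.1 FPKM (median 3.89) in SE21s and 0.0551 to 3.9 FPKM (median 0.387) in LY2186.

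Of 3 regulators of chloroplast genes 2 were lower, where 16.9% of all genes were called lower. GLK2, a GARP factor that activates photosynthesis genes, differed by -0.30 ± 0.08 (adjusted p = 0.0211), and Cga1, a GATA factor that acts on chloroplast number, by -0.39 ± 0.11 (adjusted p = 0.0267). GLK2 was not called without the ZT18, ZT39 or ZT42 pair or with quantile scaling, and Cga1 was not called without the ZT15, ZT18, ZT39 or ZT42 pair. GLK1 was not called (-0.47 ± 0.21).

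In carbon fixation RCA (LOC_Os11g47970), for Rubisco activase, took 327 to 936 FPKM (median 453) in SE21s and 146 to 326 FPKM (median 237) in LY2186. The lowest SE21s and the highest LY2186 library lay next to each other without overlap. The difference was -1.17 ± 0.18 (adjusted p = 0.00186), and the call was lost when all 34 libraries shared 1 fit. RCA is also listed at 0 in 3 daytime libraries between high values, and no such value falls in the 12 libraries compared. PGK (-0.85 ± 0.11), GAPB (-1.0 ± 0.15) and TKL (-0.74 ± 0.11), enzymes of the Calvin cycle, were lower in every pair. RBCS3, at 7564 to 20509 FPKM (median 11438) in SE21s and 7822 to 19692 FPKM (median 8918) in LY2186 the most abundant member, was not called (-0.19 ± 0.13), nor were RBCS-19470, cpFBP and FBA.

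Starch genes were lower in part. Of 12 tested starch synthesis genes 6 were lower and none was higher (median -0.50), and 4 were separated. Of all genes 16.9% were called lower and 2.39% were separated in this direction. GBSSII (LOC_Os07g22930), the granule-bound starch synthase of leaves, ran from 8.51 to 41.7 FPKM (median 16.2) in SE21s and from 0.602 to 3.78 FPKM (median 2.17) in LY2186. The lowest SE21s library was above the highest LY2186 library. The difference was -2.87 ± 0.21 (adjusted p = 4.43e-05), with -2.09 at ZT12 and -3.68 at ZT42. SSI (-1.31 ± 0.15), AGPS1 (-1.14 ± 0.12) and AGPL3 (-0.65 ± 0.11), a starch synthase and both kinds of ADP-glucose pyrophosphorylase subunit, were separated too. The branching enzyme genes BEI (-0.19 ± 0.10) and BEIIa (-0.83 ± 0.30) were not called.

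Of 11 genes of starch debranching and breakdown 5 were lower and none was higher (median -0.24), where 16.9% of all genes were called lower. Debranching enzymes, ISA1 among them, are counted here whether or not they act in breakdown. BAM-41550 (LOC_Os10g41550), for a beta-amylase, ran from 45.2 to 481 FPKM (median 154) in SE21s and 37 to 234 FPKM (median 98.4) in LY2186. It climbed from ZT12 to ZT18 in both lines, overlapped, and was lower in LY2186 in each pair, with a difference of -0.72 ± 0.14 (adjusted p = 0.00484). The call was lost when all 34 libraries shared 1 fit. MEX1, the plastid maltose exporter (-0.60 ± 0.09), ISA1, a debranching enzyme (-0.54 ± 0.09), and PHOH, the cytosolic phosphorylase (-0.67 ± 0.17), were lower, and PHOH was not called without the ZT15 or ZT39 pair. GWD1, which phosphorylates starch (-0.08 ± 0.10), and DPE2 (-0.24 ± 0.11) were not called. Without the ZT39 pair 3 of the 11 were called lower.

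For sucrose, 4 of 15 tested genes were higher and 1 was lower (median 0.08), against 18.4% and 16.9% of all genes. VIN-45290 (LOC_Os04g45290), a vacuolar invertase gene, took 1.43 to 2.94 FPKM (median 2.27) against 4.15 to 5 FPKM (median 4.51) in LY2186. The lines were separated, where 4.4% of all genes were separated in this direction, and the difference was 0.86 ± 0.13 (adjusted p = 0.00175). SUS1, a sucrose synthase gene, was separated at a low level, with 0.174 to 0.673 FPKM (median 0.451) and 0.714 to 1.98 FPKM (median 1.28) (0.92 ± 0.14). SUS4 (0.47 ± 0.09) was higher, and SPS1 (-0.44 ± 0.11), a sucrose phosphate synthase gene, was lower. The sugar exporter gene SWEET13 was higher in 5 of 6 pairs (1.62 ± 0.49, adjusted p = 0.0376), and was not called without the ZT15, ZT18 or ZT39 pair (adjusted p = 0.0827, 0.0782 and 0.0991). The sucrose transporter genes SUT1 (0.02 ± 0.18), SUT2 (-0.05 ± 0.10) and SUT4 (0.02 ± 0.08) were not called.

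The largest difference of any list was that of ASN1 (LOC_Os03g18130), for asparagine synthetase, which makes a main nitrogen transport compound of the plant. SE21s libraries ranged over 0 to 1.03 FPKM (median 0.05), with 2 of 6 listed at 0, and LY2186 libraries over 5.71 to 39 FPKM (median 12.8). No library of LY2186 came near the SE21s range, and MH86 was at 2.09 to 72.6 FPKM (median 10.5). The difference was 4.36 ± 0.24 (adjusted p = 7.01e-06), a size that depends on the pseudocount, with 6.03 at a pseudocount of 0.1 and 3.58 at 1. NADH-GOGAT1, a glutamate synthase gene, was separated as well, at 4.85 to 10.5 FPKM (median 8.21) against 14.6 to 43.8 FPKM (median 19.1) (1.37 ± 0.18, adjusted p = 0.000882). GS2, the plastid glutamine synthetase, was lower (-0.53 ± 0.10). Of 10 tested nitrogen genes these were the 2 higher and 1 lower (2 lower without the ZT36 pair), against 18.4% and 16.9% of all genes. AS-15420, the other tested asparagine synthetase gene, was not called (0.08 ± 0.09).

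Photorespiration and catalase genes gave 2 higher and 2 lower members of 12 (median -0.15), near the 18.4% and 16.9% of all genes. CATB (LOC_Os06g51150), a catalase gene, ran from 14.2 to 39 FPKM (median 23.9) in SE21s and 28.2 to 75.4 FPKM (median 56.1) in LY2186. The ranges overlapped, and LY2186 was higher in each pair, by a mean of 1.03 ± 0.11 (adjusted p = 0.000348). The leaf catalase gene CATC was lower (-0.40 ± 0.12), as was SHM1 (-0.41 ± 0.11), and GLO-53210, a glycolate oxidase gene of low level, was higher (0.65 ± 0.19). CATC was not called without the ZT15, ZT18, ZT36 or ZT39 pair, SHM1 without ZT18 or ZT39, and GLO-53210 without ZT15 or ZT39. With quantile scaling neither CATC nor SHM1 was called.

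Of 8 genes of chlorophyll breakdown and senescence 2 were higher and 1 lower (median -0.01), against 18.4% and 16.9% of all genes. SGRL (LOC_Os04g59610), a stay-green-like gene, ran from 6.49 to 27.2 FPKM (median 10.7) in SE21s and from 1.04 to 5.22 FPKM (median 3.34) in LY2186. The lines did not overlap, and the difference was -1.89 ± 0.21 (adjusted p = 0.000344). RCCR1 (0.64 ± 0.20) and NYC3 (0.46 ± 0.15), further steps of breakdown, were higher. RCCR1 was not called without the ZT15, ZT18, ZT39 or ZT42 pair, and NYC3 was called only with all pairs or without ZT12. The stay-green gene SGR (-0.18 ± 0.22) and the senescence regulator NAP (-0.07 ± 0.19) were not called.

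Defence genes were mostly higher in LY2186, 6 of 9 tested with 1 lower (median 1.14), against 18.4% and 16.9% of all genes. Each fit that left out a pair gave the same defence counts. The second night alone gave 3 higher and 1 lower, against 1371 and 1399 of all 16842 genes. The fit without the time block gave 4 higher and 0 lower, against 1128 and 795. PR10b (LOC_Os12g36850), a pathogenesis-related gene, ran from 1.1 to 14.1 FPKM (median 2.43) in SE21s and 11.7 to 65.6 FPKM (median 42.6) in LY2186. The highest SE21s library, at ZT39, overlapped the lowest LY2186 library, at ZT42, and the difference was 3.44 ± 0.30 (adjusted p = 0.000143). PR1b (chosen after its values were seen) is listed at 0 in 5 of 6 SE21s libraries and reached at most 0.107 FPKM there, against 0.669 to 18.5 FPKM (median 6.86) in LY2186. NPR1 (LOC_Os01g09800), a co-receptor of salicylic acid, was separated at 4.39 to 8.09 FPKM (median 6.91) against 11 to 21.8 FPKM (median 15.3) (1.14 ± 0.10, adjusted p = 0.000104). WRKY13 was higher in each pair (1.09 ± 0.09, adjusted p = 6.93e-05). WRKY45, a factor of salicylic acid signalling, was lower in each pair, at 18.4 to 132 FPKM (median 102) in SE21s and 8.47 to 54.5 FPKM (median 47.7) in LY2186 (-1.30 ± 0.15, adjusted p = 0.00051). PR10 genes are similar copies, so the split between PR10a and PR10b is uncertain.

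**Figure D4:**
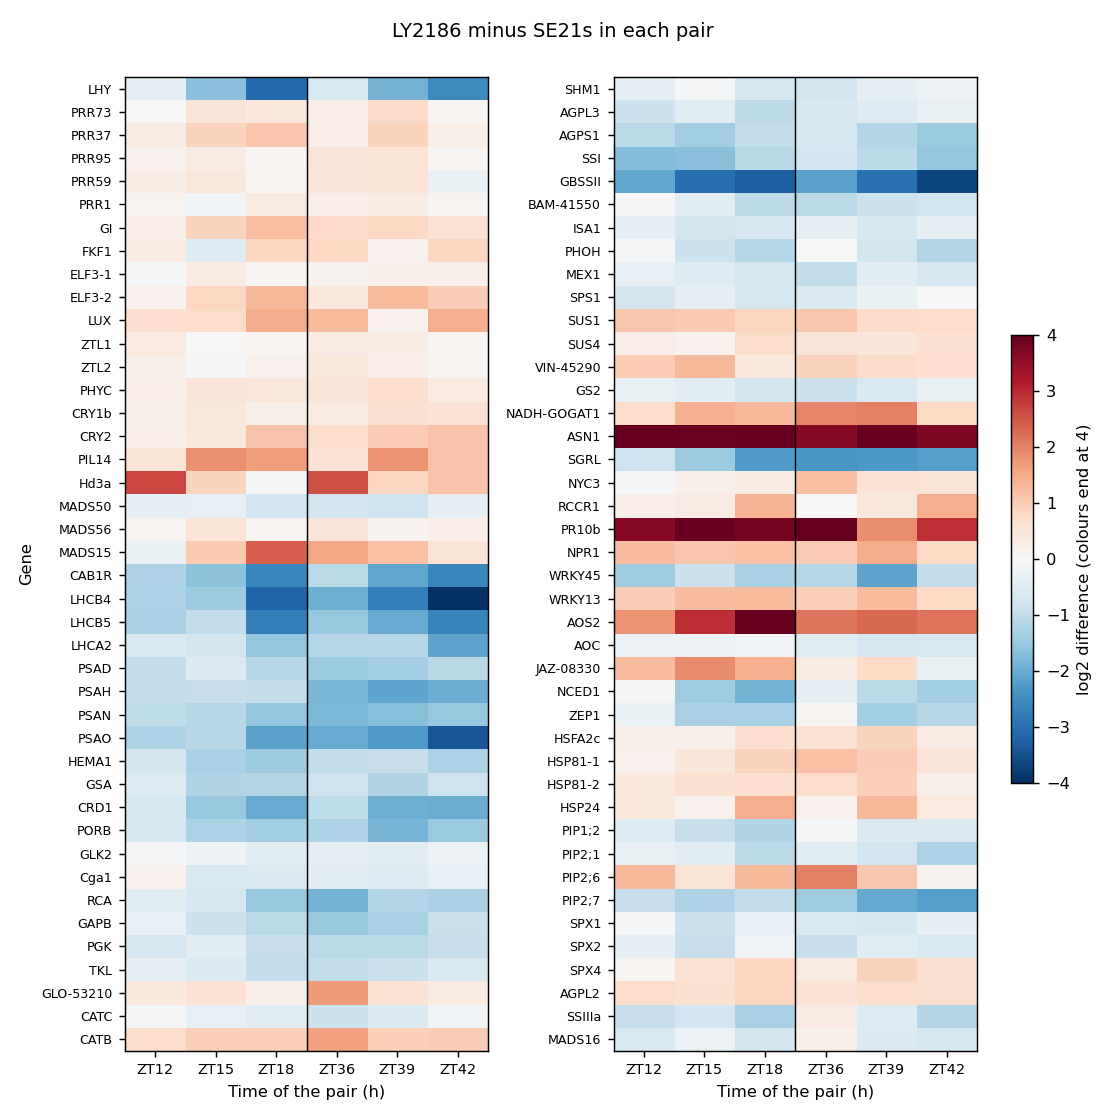
LY2186 minus SE21s on the log2(FPKM + 0.5) scale (colour, red higher and blue lower in LY2186, colours end at 4) in each of the 6 pairs (columns; the line parts the 2 nights) for the 84 list genes named by rule (rows). LHY runs from -0.41 at ZT12 to -3.11 at ZT18, and ASN1 lies between 3.63 and 5.31 in every pair.

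Among jasmonate genes AOS2 (LOC_Os03g12500), for allene oxide synthase at the entry of the pathway, is listed at 0 in 5 of 6 SE21s libraries, with 0.0569 FPKM in the other, and ran from 1.24 to 16.6 FPKM (median 1.84) in LY2186. The lines were separated, by 2.74 ± 0.40 (adjusted p = 0.00146), and by 4.75 at a pseudocount of 0.1. AOC, the next enzyme, was lower (-0.40 ± 0.10) and the repressor gene JAZ-08330 higher (0.89 ± 0.28). AOC was not called without the ZT39 or ZT42 pair, and JAZ-08330 without the ZT12, ZT15, ZT18 or ZT39 pair or with quantile scaling. The other 6 of 9 tested genes, both co-receptor genes included, were not called, and the median was 0.25. Of all genes 18.4% were called higher and 16.9% lower.

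In the abscisic acid list 2 of 6 tested genes were lower and none was higher (median -0.12), against 16.9% and 18.4% of all genes. The lower ones were NCED1 (-1.01 ± 0.24, adjusted p = 0.0124), which opens the committed path to the hormone, and ZEP1 (-0.87 ± 0.21, adjusted p = 0.0125). NCED1 ran from 71.1 to 178 FPKM (median 94.4) in SE21s and 23.6 to 166 FPKM (median 39.5) in LY2186, overlapping at ZT12 and ZT36. ABA8ox1, for a hydroxylase that degrades the hormone, ran from 0.786 to 38.8 FPKM (median 3.01) against 2.18 to 116 FPKM (median 15.7) and was not called (adjusted p = 0.0874).

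All 6 tested heat shock genes were called, 4 higher and 2 lower (median 0.55), where 35.2% of all genes were called. HSFA2c (LOC_Os10g28340), a heat shock factor gene, was separated at 12.5 to 18.8 FPKM (median 17.2) in SE21s and 19.3 to 31.4 FPKM (median 22.7) in LY2186 (0.49 ± 0.11, adjusted p = 0.00901). The cytosolic HSP90 genes HSP81-1 (0.72 ± 0.13) and HSP81-2 (0.60 ± 0.11) were higher in each pair. HSP24, of low level, was higher (0.65 ± 0.20) and lost its call without the ZT12, ZT18, ZT39 or ZT42 pair and with quantile scaling. HSFA2d (-0.60 ± 0.19) and HSP101 (-0.30 ± 0.10) were lower, but at most 1 of them was called in any fit that left out a pair, with 0 without ZT12, ZT18 or ZT42 and 1 without ZT15, ZT36 or ZT39.

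Aquaporin genes of the plasma membrane gave 4 lower and 1 higher of 8 tested (median -0.68), against 16.9% and 18.4% of all genes. PIP2;7 (LOC_Os09g36930) had the largest difference, at 38 to 1172 FPKM (median 214) in SE21s and 12.8 to 436 FPKM (median 76.9) in LY2186. It was high at ZT12 and ZT36 in both lines, so ranges overlapped, and LY2186 was lower in each pair (-1.47 ± 0.18, adjusted p = 0.000619). PIP1;2 (-0.65 ± 0.14) and PIP2;1 (-0.72 ± 0.14) were lower, and PIP2;6 was higher (1.07 ± 0.22). Of the SPX genes, sensors of phosphate status, SPX1 (-0.49 ± 0.11) and SPX2 (-0.58 ± 0.11) were lower and SPX4 was higher (0.58 ± 0.12).

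Markers of other organs were few. Of 4 tested grain markers AGPL2, for a pyrophosphorylase subunit known from endosperm, was separated at 12.7 to 18.7 FPKM (median 14.8) against 21.3 to 29.3 FPKM (median 24.2) (0.69 ± 0.07, adjusted p = 0.000221), and SSIIIa was lower (-0.73 ± 0.22). The glutelin gene GluA1 reached 23.8 FPKM in LY2186 at ZT15 and at most 0.812 in SE21s, and was not called. Of 4 tested floral markers MADS16 was lower (-0.44 ± 0.14). SSIIIa and MADS16 each lost the call without any pair but that of ZT36. The part of grain or floral RNA in the results was not tested.

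The next comparison asked whether the line difference at dusk and night differed from that by day (ZT3, 6, 9, 27, 30 and 33, with 6 other libraries per line), by an interaction of line and period in limma. It called 57 of 16842 genes (0.338%), 19 more positive in the hybrid at night (0.113%) and 38 more negative (0.226%), and 2682 had an unadjusted p under 0.05. Of the 57, 22 had opposite signs in the 2 periods, 27 the same sign with a larger difference at night, and 8 the same sign with a smaller one on this scale. In 6 of these 8 SE21s averaged under 0.5 FPKM at night and under 1 by day. The size of their values thus depends on the pseudocount, and whether the fold was smaller at night is uncertain for most. LOC_Os08g12800, 1 of the 6, stayed at -2.48 with a pseudocount of 0.01, without a call (adjusted p = 0.151). The count of 57 changed with single hours. It was 2 without the ZT18 pair and 5 to 26 without any 1 of ZT3, ZT6, ZT9, ZT15, ZT27, ZT30, ZT39 or ZT42, but 136 without ZT12, 153 without ZT33 and 197 without ZT36. With ZT12 and ZT36 both left out, so that only ZT15, 18, 39 and 42 stood against the day, 832 genes passed (4.94%), all 57 among them.

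Of the 208 tested list members 4 were called. GBSSII by day ranged over 23.5 to 658 FPKM (median 231) in SE21s and 7.74 to 531 FPKM (median 184) in LY2186. By day the lines overlapped over most of their range, and at night they did not. The line difference was -0.70 by day and -2.87 at night, and night minus day was -2.18 ± 0.36 (adjusted p = 0.0282). BAM-41550 differed in opposite directions in the 2 periods. By day its levels were 0.677 to 12.7 FPKM (median 3.57) in SE21s and 4.3 to 31.1 FPKM (median 13.2) in LY2186, a difference of 1.52 that set the hybrid higher, against -0.72 at night. Night minus day was -2.24 ± 0.34 (adjusted p = 0.0261).

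SGRL differed by -0.43 by day, at 22.8 to 96.3 FPKM (median 43.8) in SE21s and 13.4 to 63 FPKM (median 36.5) in LY2186, and by -1.89 at night (night minus day -1.46 ± 0.24, adjusted p = 0.028). Hd1 (LOC_Os06g16370), the CONSTANS homologue that sets flowering time by day length, ran by day from 1.15 to 3.93 FPKM (median 1.31) in SE21s and from 0.405 to 2.06 FPKM (median 0.553) in LY2186. At night it was 11.9 to 17.9 FPKM (median 15.1) and 12 to 15.2 FPKM (median 13.8), with overlap and no call (-0.10 ± 0.09). The daytime difference was -0.83, and night minus day was 0.72 ± 0.13 (adjusted p = 0.034). With no level filter, without the time block, or without the ZT6, ZT18, ZT39 or ZT42 pair, none of these 4 was called, and Hd1 was not called with a pseudocount of 1. GBSSII, Hd1 and SGRL were also lost without ZT3, ZT9 or ZT27, GBSSII and Hd1 without ZT15, and GBSSII and SGRL without ZT30, with adjusted p of at most 0.1 in the fits that left out a pair.

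The other lists had no called member in this test. The antenna median was -1.87 at night and -0.65 by day, and 11 of 13 members were further from 0 at night, as were 58.8% of all genes, while their adjusted p began at 0.0643 for CAB1R. LHY had a night minus day value of -1.63 ± 0.40 (adjusted p = 0.101). With ZT12 and ZT36 left out, 6 of 13 antenna genes (CAB1R, LHCB3, LHCB4, LHCB5, LHCB6 and LHCA4) and LHY passed as more negative at night, as did CRD1 and CAO1 of chlorophyll synthesis, and GI and PRR37 passed as more positive.

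**Figure D5:**
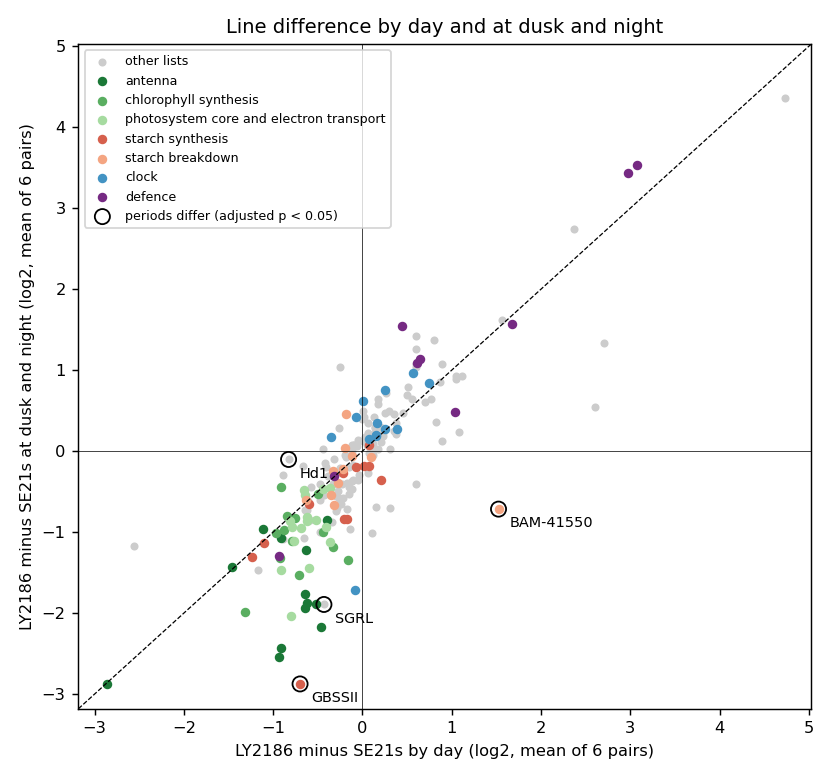
Line difference (LY2186 minus SE21s, log2(FPKM + 0.5), mean of 6 pairs) by day (x axis) against dusk and night (y axis) for the 208 tested list members, coloured by list, with the line of equal differences dashed. Circles mark the 4 members called in the test of the periods, BAM-41550 at 1.52 by day and -0.72 at night among them.

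Within the night, ZT12 and ZT36 were set against the 4 later hours. By limma no gene was called (0 of 16842, smallest adjusted p 0.0614), and 2276 had an unadjusted p under 0.05. Alternatives called 0 to 8 genes. For description, the antenna median was -1.40 at ZT12 and ZT36 and -2.14 later, and that of chlorophyll synthesis genes -0.73 and -1.14. ELF3-2 differed by 0.31 and 1.10, LHY by -0.53 and -2.30, and Hd3a by 2.60 and 0.71.

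Outside the lists, LOC_Os08g08655 and LOC_Os12g39440 had the largest differences in favour of the hybrid. LOC_Os08g08655 was at 0 to 0.285 FPKM (median 0.168) in SE21s and 117 to 284 FPKM (median 256) in LY2186 (8.44 ± 0.17, adjusted p = 1.42e-08). LOC_Os12g39440 was at 0 to 0.0546 FPKM (median 0) and 56.7 to 96.3 FPKM (median 72.8) (7.18 ± 0.12, adjusted p = 9.58e-09). Both were near 0 in SE21s, so the size of these differences depends on the pseudocount, and they passed the level filter through the other lines. The identifiers of this paragraph were picked by the size of their difference in these same pairs. Their adjusted p is thus no separate support. In MH86 they stood at 189 to 530.0 FPKM (median 409.9) and 75.9 to 147 FPKM (median 128). In the other direction LOC_Os05g47540 was at 10.5 to 109 FPKM (median 15.6) in SE21s and 0.182 to 7.63 FPKM (median 0.604) in LY2186, without overlap (-3.83 ± 0.10, adjusted p = 6.77e-08). LOC_Os07g04270 was at 125 to 282 FPKM (median 215) and 0 to 63.2 FPKM (median 31.8) (-3.80 ± 0.89, adjusted p = 0.0185). It is listed at 0 in all 6 MH86 libraries. Its 0 in 1 LY2186 library lies between high values and may be a failed estimate, and with that value set missing the difference was -2.81 ± 0.25 (adjusted p = 0.000231), the 7th largest among lower genes outside the lists, so the size and place given above rest on it.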

How the data were processed

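Strand-specific RNA libraries of field-grown flag leaves were made with a TruSeq Stranded kit, per the labels' protocols. TopHat2 and Cuffdiff were used, per the submitters' processing notes; for versions, genome build, annotation and fragments with several matches, the sources used here give nothing. The authors deposited 1 table of FPKM values for 34653 gene identifiers, which 1 reference gene table could not name, so no coordinates or sequences are given. Without fragment counts the depth is unknown, and intervals for counting error are left out. The deposited scaling was kept.

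Models were fitted in R 4.3.3 with limma 3.58.1 (trended, robust prior, two-sided, Benjamini-Hochberg over all 16842 genes), and the steps were tested on simulated data. Libraries were paired by the ZT in their labels, which all 3 fits used as a block. A 0 counted as doubtful if 10 FPKM was reached at 2 or more of 3 related times of that line (3 h before, 3 h after and 24 h away), which marked 90 values in 56 genes in the 12 libraries; these were kept. Members, lists, tests and the rule for named genes (every tested clock gene, up to 4 called members of each other list with the smallest adjusted p, up to 2 per list for each interaction, and at most 2 identifiers per direction outside the lists) were chosen with earlier results of these data known, and other list members are named as chosen after their values were seen. Alternatives were pseudocount, level filter, scaling, prior, block, nights, hours, a fit of all 34 libraries and leaving out each pair.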

Additional observations from a re-analysis of the deposited data

Results flagged for a closer look

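Of 84 named genes, 3 had a pair far from the other 5 by Dixon's test, and chance gives about 1 in 20. GLO-53210 differed by 1.72 at ZT36 and by 0.21 to 0.58 in the other pairs. CATB differed by 1.63 at ZT36 and by 0.74 to 0.98 in the others. AOS2 differed by 5.10 at ZT18, where LY2186 stood at 16.6 FPKM, and by 1.80 to 2.96 in the others.

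The line difference itself differed between night and day in 4 list members by limma, as night minus day on the log2 scale. Hd1 gave 0.72 (adjusted p = 0.034), GBSSII -2.18 (0.0282), BAM-41550 -2.24 (0.0261) and SGRL -1.46 (0.028).

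Outside the lists, LOC_Os02g48070 is listed at 0 in all 6 SE21s libraries of both periods and reached 2.03 to 11.6 FPKM (median 4.75) in LY2186 at night against a mean of 0.327 by day, so its value of 3.02 (adjusted p = 0.028) depends on the pseudocount. LOC_Os12g26290 gave 2.91 (adjusted p = 0.00529), with means of 2.17 FPKM in SE21s and 27.2 in LY2186 at night and 149.9 and 166 by day. LOC_Os01g25010 gave -2.79 (adjusted p = 0.0261) and was higher in LY2186 in both periods, with means of 1.18 FPKM at night and 27.6 by day against 0.0074 and 0.713 in SE21s. SE21s is listed at 0 in 5 of the 6 night libraries, and the value was -1.96 with a pseudocount of 0.1 (adjusted p = 0.144) and 0.43 with 0.01, so its direction rests on the pseudocount. LOC_Os08g12800 gave -2.36 (adjusted p = 0.0261), with LY2186 means of 0.908 FPKM at night and 7.64 by day against 0.191 and 0.29 in SE21s, and was not called with a pseudocount of 0.1 (adjusted p = 0.0714). The identifiers of this paragraph were picked by their values in this same test.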

How the results depend on the processing

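With 1 library per line and time, the spread is that of pair differences across 6 hours and 2 nights, and the depth behind each FPKM is unknown. At dusk and night 5935 genes were called with ZT as a block and 1923 without the block (1128 higher, 795 lower), where 1 antenna, 1 photosystem core, 5 chlorophyll synthesis and 1 carbon fixation gene were called lower. The first night alone gave 1937 calls (1106 higher, 831 lower; 4 antenna genes lower) and the second night 2770 (1371 higher, 1399 lower; 10 antenna genes lower). Leaving out 1 pair gave 3931 to 6188 calls, 2053 to 3074 higher and 1878 to 3114 lower. Of 1591 values of named genes over 19 alternatives, 1382 kept direction and side of the threshold, 204 missed it, 4 passed newly and 1 turned, PRR95 at -0.063 with quantile scaling. For night against day (57 calls, 19 and 38), a pseudocount of 0.1 gave 11 more positive genes, one of 0.01 (chosen after seeing the data) 34 genes (9 and 25), no level filter gave 4 genes (1 and 3), quantile scaling 89 with 32 more positive, no block 8 (3 and 5), ZT12 and ZT36 left out 832 (376 and 456), and leaving out 1 pair 2 to 197 (1 to 77 and 1 to 120). For ZT12 against later hours (0 calls by limma, 2276 at an unadjusted p under 0.05), a pseudocount of 0.1 gave 2 more negative genes, a mean of at least 5 FPKM 1, quantile scaling 3, the plain prior 1 more positive, doubtful zeros set missing (an alternative chosen after seeing the data) 5 (1 and 4), and leaving out 1 pair 0 to 8 (0 to 4 in each direction). The causes were not tested. Setting doubtful zeros missing gave 5941 and 57 calls in the other comparisons.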

Other observations

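A set of genes was on in the hybrid and close to 0 in SE21s throughout these hours. By limits chosen after seeing the data, with no test, 44 tested genes had at least 5 FPKM in all 6 LY2186 libraries and under 0.5 FPKM in all 6 SE21s libraries, and 0 genes had the reverse pattern. The contrast of these counts was partly set in advance, because SE21s is a parent of LY2186. The level filter also passes genes high in both LY2186 and MH86 more readily than genes high in SE21s alone. Of the 44, 41 also had at least 5 FPKM in all 6 MH86 libraries. In these 41 the LY2186 mean was 0.303 to 0.66 of the MH86 mean, with a median of 0.516. The 44 are out of 16842 tested genes. By the chromosome number in the identifier, 13 of the 44 lie on chromosome 7 (0.98% of the tested genes there). Chromosome 1, with the most tested genes (2397), holds 10 (0.417%). The share was 0.365% on chromosome 8, 0.347% on 4 and 0.33% on 12. It was 0.0722% to 0.223% on chromosomes 2, 5, 6 and 11, and 0 on 3, 9 and 10. LOC_Os08g08655 and LOC_Os12g39440 belong to this pattern.

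GA20ox1 (LOC_Os03g63970), for a gibberellin 20-oxidase that makes precursors of active gibberellin, was chosen after its values were seen. It ran from 53.1 to 84.4 FPKM (median 71.5) in SE21s, 2.83 to 10.3 FPKM (median 4.08) in LY2186 and 0.722 to 3.57 FPKM (median 1.06) in MH86. SE21s was far above both other lines, without overlap. The difference LY2186 minus SE21s was -3.66 ± 0.18 (limma, adjusted p = 3.93e-06, lower in 6 of 6 pairs) at night and -2.42 by day, where the means were 27.6 FPKM in SE21s and 4.8 in LY2186. Night minus day was -1.24 ± 0.24 (adjusted p = 0.0437).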
